A study of Mus musculus with 18 samples.

Results

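The regions described here are the GATA6 binding regions around 6 genes that hold mouse embryonic stem (ES) cells in pluripotency, Pou5f1, Sox2, Klf4, Klf5, Klf2 and Prdm14. They were chosen by position. A region belonged to a locus when its GATA6 summit, the base with the highest GATA6 signal, lay in a window of 202 to 215 kb around the gene on the GRCm38 (mm10) assembly. The rule itself uses no signal or class, although the loci and windows were set with earlier results of these data known. Of the 42403 regions that GATA6 bound during the time course, 74 met the rule, 11 at Pou5f1 (gene at chr17:35506018-35510772), 8 at Sox2 (chr3:34650405-34652461), 18 at Klf4 (chr4:55527143-55532466, minus strand), 19 at Klf5 (chr14:99298691-99315036), 9 at Klf2 (chr8:72319033-72321656) and 9 at Prdm14 (chr1:13113457-13127163, minus strand). The windows also held other genes, 10 coding genes in all at Pou5f1 and 5 at Klf2, and position alone does not say which gene a region acts on. Each region is named below by the distance of its summit from the transcript start of the gene, so that Pou5f1-2.0kb lies 2.0 kb upstream of the start and Klf4+67.3kb lies 67.3 kb downstream of it.

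The cells were mouse ES cells of the KH2 line that carried a Gata6 transgene under doxycycline (Dox) control, grown on mitotically inactivated fibroblast feeders with serum and LIF. Every group carried the transgene. Untreated cells (d0) were followed by cells after 8, 16, 24, 48 and 96 h of Dox, with 3 MNase-seq libraries in each of the 6 groups, 18 in all. The transgene is HA-tagged, and a pair of clones was used by the study, 1 of them for the Oct4 knockdown. Each column of the deposited region table holds 1 value per region and time point, or per region for a class. None carries the value of an MNase library, so nucleosome signal was not analysed here, and none holds expression, so the cell type could not be checked against marker genes. XEN cells, a stem cell line of the extraembryonic endoderm, served as the reference for primitive endoderm (PrE).

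GATA6 and SOX17 are transcription factors that specify PrE, one of the first lineages of the mouse embryo. OCT4 (the product of Pou5f1), SOX2 and ESRRB are the pluripotency transcription factors (PTFs) measured in the table. OCT4 and SOX2 often bind DNA together at a composite motif, and each also takes part in endoderm differentiation. KLF2, KLF4 and KLF5 are zinc finger factors that sustain the naive state with overlapping roles, and PRDM14 represses differentiation signalling and DNA methylation in naive cells. Pou5f1 is known for a proximal and a distal enhancer just upstream of its promoter. Klf4 is known for a distal enhancer cluster downstream of the gene, and Sox2 depends in ES cells on a control region farther downstream than the window used here.

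The DNA sequences below are the best OCT4:SOX2 motif hits, as deposited, of the regions that the later paragraphs turn on. They are shown because the Oct4 knockdown and the PTF signals are read against them. Capitals mark the 15 bases of the hit, and 10 bases of lower-case flank stand on each side. The sequences are read 5′ to 3′ on the strand given, from the GRCm38 assembly. The first set are the 8 regions at which GATA6 binding was classed as decreased after Oct4 knockdown.
Pou5f1-2.0kb (chr17:35504039-35504073, minus strand): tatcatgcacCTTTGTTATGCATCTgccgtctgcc
Sox2-4.0kb (chr3:34646397-34646431, plus strand): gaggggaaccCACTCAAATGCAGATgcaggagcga
Sox2+70.7kb (chr3:34721323-34721357, plus strand): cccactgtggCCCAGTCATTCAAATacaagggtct
Klf4-6.5kb (chr4:55539117-55539151, minus strand): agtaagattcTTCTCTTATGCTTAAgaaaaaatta
Klf4-31.8kb (chr4:55564249-55564283, minus strand): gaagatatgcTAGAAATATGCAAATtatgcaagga
Klf2-47.7kb (chr8:72272300-72272334, minus strand): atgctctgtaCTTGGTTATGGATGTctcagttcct
Klf2+35.1kb (chr8:72354198-72354232, plus strand): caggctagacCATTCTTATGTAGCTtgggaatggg
Prdm14+111.3kb (chr1:13015801-13015835, plus strand): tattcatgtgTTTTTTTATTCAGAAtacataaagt

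The second set are the 3 regions classed as increased after Oct4 knockdown, all at Klf4.
Klf4+85.1kb (chr4:55446667-55446701, plus strand): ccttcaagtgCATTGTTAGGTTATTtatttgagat
Klf4+15.7kb (chr4:55516639-55516673, plus strand): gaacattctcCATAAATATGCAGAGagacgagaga
Klf4-39.2kb (chr4:55571668-55571702, plus strand): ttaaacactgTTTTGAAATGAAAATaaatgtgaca

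The third set completes the region nearest each gene's start and the region with the highest GATA6 signal of each locus. Klf5-0.2kb held neither an OCT4:SOX2 nor a GATA6 hit.
Pou5f1-1.2kb (chr17:35504759-35504793, plus strand): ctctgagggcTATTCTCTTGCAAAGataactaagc
Pou5f1-18.7kb (chr17:35487380-35487414, plus strand): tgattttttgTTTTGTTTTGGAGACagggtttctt
Klf4-0.1kb (chr4:55533199-55533233, plus strand): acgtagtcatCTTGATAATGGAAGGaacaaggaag
Klf4+67.3kb (chr4:55463939-55463973, minus strand): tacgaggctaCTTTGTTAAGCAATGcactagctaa
Klf5+32.6kb (chr14:99330620-99330654, plus strand): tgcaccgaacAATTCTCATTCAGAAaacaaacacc
Prdm14-5.0kb (chr1:13131696-13131730, plus strand): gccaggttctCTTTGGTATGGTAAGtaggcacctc
Prdm14+52.5kb (chr1:13075002-13075036, minus strand): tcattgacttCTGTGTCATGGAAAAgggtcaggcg

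Sox2+94.9kb and Klf2-2.8kb held no OCT4:SOX2 hit, and their best GATA6 hits of 13 bases are given in its place.
Sox2+94.9kb (chr3:34745569-34745601, plus strand): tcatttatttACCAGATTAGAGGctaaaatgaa
Klf2-2.8kb (chr8:72316240-72316272, plus strand): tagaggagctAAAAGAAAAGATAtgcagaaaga

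The best GATA6 and OCT4:SOX2 hits of 2 decreased regions are shown together, with both hits in capitals. These were the shortest of the 9 stretches of 71 to 293 bp that held both hits of a region described in full.
Pou5f1-2.0kb, stretch with both hits (chr17:35504039-35504109, plus strand): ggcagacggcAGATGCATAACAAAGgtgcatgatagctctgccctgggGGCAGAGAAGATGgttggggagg
Klf4-31.8kb, stretch with both hits (chr4:55564249-55564368, plus strand): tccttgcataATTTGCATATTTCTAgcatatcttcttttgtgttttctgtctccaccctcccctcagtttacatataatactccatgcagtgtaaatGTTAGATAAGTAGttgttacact

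Signal values are library-corrected reads per region as the authors deposited them, 1 value per time point. Whether these are means or sums over replicates is not given in the sources used here. Most ChIP-seq conditions come from 2 chromatin preparations, but untreated GATA6 and OCT4 in XEN cells from 1, and ATAC from 3 cultures, at 96 h from 2. No error can be attached to a single value and no test over samples could be run, so "higher" and "lower" below compare pooled values. The depth behind a value is known for 1 column only. Untreated GATA6 values were whole multiples, within 0.01, of 0.163 in all 42403 regions, and the 74 regions held 1 to 15 such steps with a median of 5. GATA6 was measured at 48 h both in the time course and with control siRNA, which are separate experiments. The study sequenced the knockdown libraries paired-end and the others single-end, so the difference at 48 h can hold more than replicate error. After centring and with no pseudocount, the 2 measurements differed by a median of 0.46 on the log2 scale over all regions and by 1.42 at the 95th percentile. The same figures were 0.44 and 1.16 over the 74 regions. Regions here were wider than the rest, with a median of 794 bp (188 to 2302 bp) against 524 bp, and the factor, ATAC and input signals rose with width across all regions (Spearman rho 0.42 to 0.78), so levels are compared between regions with width in mind. Binding in fewer cells and weaker binding in each cell cannot be told apart in bulk chromatin.

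GATA6 binding at the 6 loci was mostly Early or Transient, and PTFs were often already there. The authors divided regions by their GATA6 time course into Early&Constant (Early below), Late and Transient classes. The 74 regions held 29 Early (39.2%, against 28.0% of all 42403 regions), 10 Late (13.5%, against 33.6%) and 35 Transient regions (47.3%, against 38.4%). PTF peaks were present from d0 at 32 regions (43.2%, against 20.8%), appeared only after Dox (ectopic PTFs) at 20 regions (27%, against 16.6%) and were recorded at no time at 22 regions (29.7%, against 62.6%). A SOX17 peak was recorded at 39 regions (52.7%, against 44.5%). As the 74 regions were also wider than the rest, the part of width in these shares was not tested.

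Chromatin at the loci was more often open before Dox. By ATAC signal at d0, 12 regions were accessible (16.2%, against 7.43%), 35 were moderate (47.3%, against 31.2%) and 27 were closed (36.5%, against 61.3%). By histone state in ES cells, 21 were active enhancers (28.4%, against 11.2%), 16 primed enhancers (21.6%, against 16.9%), 9 poised enhancers (12.2%, against 14.6%) and 10 promoters (13.5%, against 6.88%). Facultative heterochromatin held 8 regions (10.8%, against 22.3%), constitutive heterochromatin 8 (10.8%, against 10.2%) and the naive state, with little of any mark, 2 (2.70%, against 18.0%). Of the 12 accessible regions 10 were Transient (64.5% of all accessible regions) and 2 Early, and 8 of the 10 Late regions were closed (81.4% of all Late regions). H3K27ac, a mark of active enhancers and promoters, had a median of 2.03 over the 74 regions against 0.894 over all. For the histone states the authors corrected the mark signals for library size and region width. The H3K27ac values, unlike the factor signals, hardly changed with width (Spearman rho 0.04). H3K27me3, the Polycomb mark, was at 0.59 against 0.60. Summits lay between genes in 47 regions, in introns in 16, within 1 kb of a transcript start in 9 and in exons in 2.

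**Figure D1:**
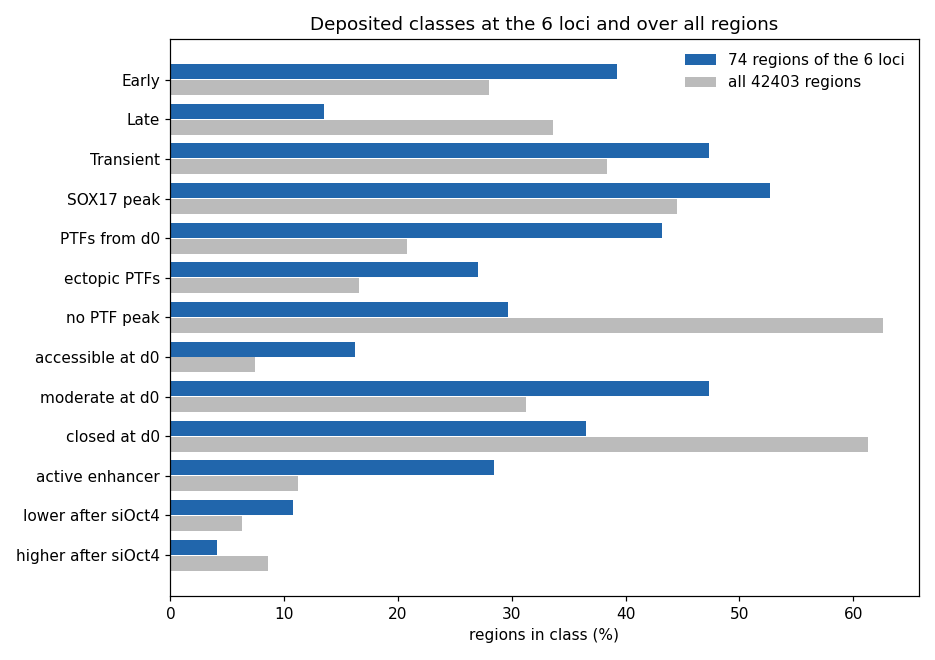
Share of regions in each deposited class (percent, horizontal axis from 0), for the 74 regions of the 6 loci (blue) and all 42403 GATA6 regions (grey). PTF peaks from d0 marked 43.2% of the 74 regions and 20.8% of all, and the Late class held 13.5% and 33.6%.

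SOX17 peaks and PTFs from d0 were unevenly spread over the GATA6 classes, here and over all regions. Of the 29 Early regions 26 had a SOX17 peak (72.6% of all Early regions), against 8 of the 35 Transient (16.2%) and 5 of the 10 Late regions (53.4%). The 32 regions with PTFs from d0 were 19 Transient (60.0% of all such regions), 13 Early (37.1%) and 0 Late (2.83%). The 20 with ectopic PTFs were 12 Early (61.3%), 7 Transient (18.3%) and 1 Late (20.4%), and 9 of the 10 Late regions had no PTF peak (88.2%). All of these classes rest partly on the same ChIP-seq signals, so their co-occurrence is a description.

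GATA6 signal over the 74 regions had a median of 0.817 at d0 and 3.46 at 8 h. It was 3.48 at 16 h, 2.63 at 24 h, 2.62 at 48 h and 2.03 at 96 h. Input, the chromatin before immunoprecipitation, had medians of 0.707 to 0.914 over the same 6 time points, so untreated GATA6 signal lay at the level of input and the signal at 8 h lay above it. Across all regions the medians of GATA6 were 0.49 at d0, 1.49 at 8 h and 1.29 at 96 h. The signal was highest at 8 h in 32 of the 74 regions (32.8% of all regions), at 16 h in 16 (17.7%), at 24 h in 4 (6.72%), at 48 h in 3 (4.5%) and at 96 h in 19 (37.2%). From 8 h to 96 h the median log2 change was -0.99 over the 74 regions and -0.03 over all, with a range from -3.96 to 3.72. It was lower at 96 h in 50 of the 74 regions (50.5% of all regions), by more than 2-fold in 36 (36.3% of all), and more than 2-fold higher in 16 (33.2% of all).

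**Figure D2:**
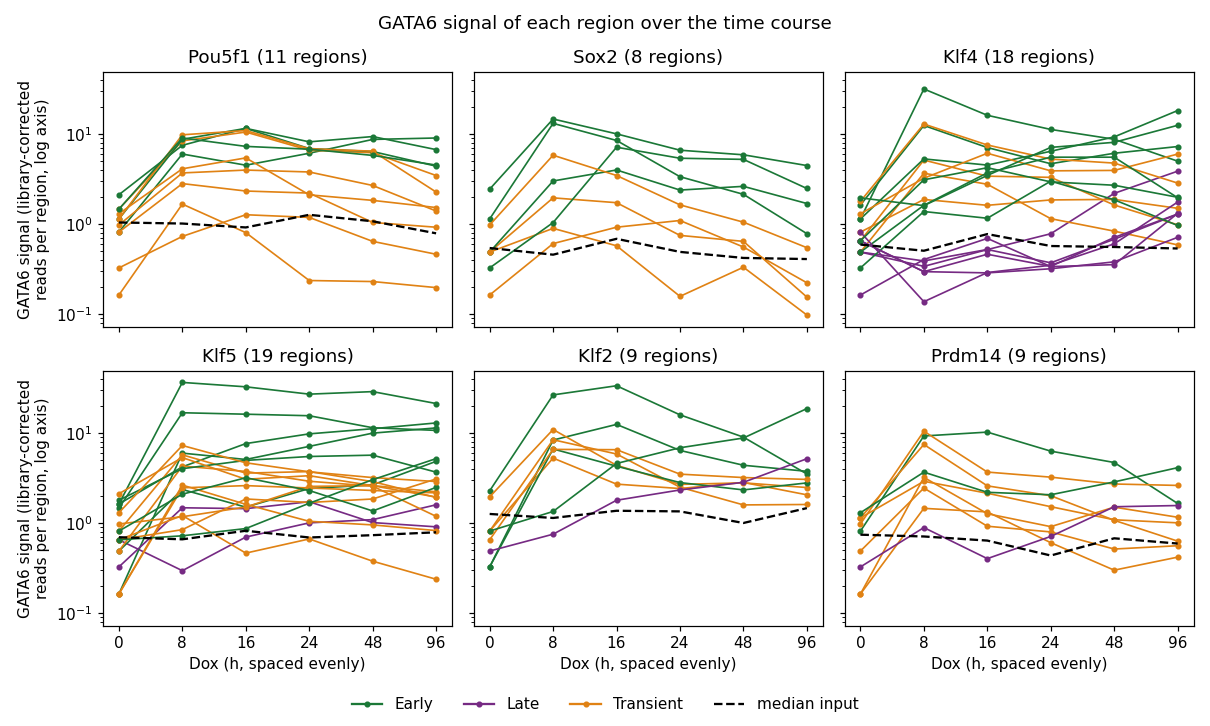
GATA6 signal (library-corrected reads per region, log axis) of each region over the time course (hours of Dox, evenly spaced), 1 panel per locus, coloured by deposited GATA6 class, with the median input signal of the locus dashed. The 6 Late regions at Klf4 lie below the median input at 8 h, and most lines at Sox2, Klf2 and Prdm14 are lower at 96 h than at 8 h.

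Class and signal were not the same thing. Of the 29 Early regions 7 had a GATA6 signal more than 2-fold lower at 96 h than at 8 h (24.1%, against 23.2% of all Early regions). Of the 35 Transient regions 3 had a higher signal at 96 h than at 8 h (8.57%, against 8.32%). These were Klf4-0.1kb, Klf5-0.2kb and Klf5+2.6kb, the last named after its values were seen. All 3 had a promoter histone state, were accessible at d0 and gained PTF peaks only after Dox. The classes rest on signal relative to input, which these values do not include, and input was among the higher values at both starts, 2.40 at Klf4-0.1kb and 1.22 at Klf5-0.2kb at 96 h.

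At Pou5f1 the 11 regions comprised 4 Early, 7 Transient and 0 Late regions, and 7 had PTFs from d0. The histone state was active enhancer at 7 and promoter at 3. GATA6 signal was lower at 96 h than at 8 h in 10 of the 11 (50.5% of all regions), with a median log2 change of -1.26 (-2.74 to 0.58). The exception was Pou5f1-20.1kb at 0.58, named after its values were seen.

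Pou5f1-2.0kb (chr17:35503642-35504431, 789 bp) lay between genes in the upstream stretch that holds the known distal enhancer of the gene. It was Transient, accessible at d0 and of the promoter state, with H3K27ac at 33.6. GATA6 signal there was 1.14, 9.84, 11, 6.89, 6.47 and 2.28 at 0, 8, 16, 24, 48 and 96 h, the order used for each series of 6 values below. It was highest at 16 h, level with input at d0 (1.13) and above it at 96 h (0.735). OCT4 signal was 9.33, 9.91, 8.93, 11.5, 15.8 and 4.26 and ranked above 98.5% of all regions at d0 and 99.5% at 48 h. OCT4 signal in this region of its own gene was thus highest at 48 h, after GATA6 signal had been highest there. Of the other regions of the locus described below, the one nearest the start had its highest OCT4 signal at d0. The one with the highest GATA6 signal had it at 48 h. At Pou5f1-2.0kb the log2 change of OCT4 signal from d0 to 48 h was 0.75, against a shift of 0.31 over all regions. SOX2 signal was 11.9, 12.4, 13.6, 6.88, 11.3 and 1.51. SOX17 signal was 3.77, 2.58, 2.7, 5.49, 6.78 and 2.45, with the highest value at 48 h. ATAC signal was 0.757, 0.79, 0.676, 1.04, 1.3 and 0.45, so accessibility was highest at 48 h and lower at 96 h than before Dox.

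Pou5f1-1.2kb (chr17:35504679-35505611, 932 bp), the region nearest the start, lay between genes at the position where the proximal enhancer is known. It carried the highest H3K27ac of the 74 regions, 35.1, and was accessible at d0. GATA6 signal was 1.31, 4.12, 5.45, 2.12, 1.84 and 1.53, weaker than at Pou5f1-2.0kb at every time point from 8 h although the region was wider. OCT4 signal was 3.19, 2.95, 2.46, 2.85, 3.01 and 1.32 and ATAC signal 0.744, 0.695, 0.527, 0.609, 0.337 and 0.226. Accessibility was thus lower at 48 h than at d0 here, where it was higher at Pou5f1-2.0kb. No SOX17 peak was recorded, and SOX17 signal stayed between 1.23 and 1.99.

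Pou5f1-18.7kb (chr17:35486688-35487576, 888 bp) had the highest GATA6 signal of the locus, 2.12, 7.52, 11.6, 8.22, 9.41 and 6.74. It was Early, with ectopic PTFs, and its untreated value was also above that of 99.0% of all regions. SOX17 signal was 2.03, 1.8, 2.65, 6.43, 8.16 and 7.03, OCT4 signal 2.29, 2.44, 2.66, 5.61, 6.92 and 4.43 and ATAC signal 0.391, 0.366, 0.53, 0.657, 1.13 and 0.555. All 3 were highest at 48 h. In XEN cells GATA6 was at 5.95 and OCT4 at 0.667, so GATA6 was close to its 96 h level there and OCT4 was not.

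At Sox2 the 8 regions comprised 4 Early, 4 Transient and 0 Late regions. PTFs were present from d0 at 4, ectopic at 2 and absent at 2. The locus had the lowest median change of GATA6 from 8 h to 96 h of the 6, -2.14 on the log2 scale (-3.96 to 1.20). GATA6 signal in XEN cells had a median of 0.267 over its regions, against 1.34 over all regions.

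Sox2-4.0kb (chr3:34645871-34646868, 997 bp) was nearest the start and lay in an intron of Sox2ot, the non-coding gene that overlaps Sox2. GATA6 signal was 1.14, 13.2, 8.51, 3.37, 2.15 and 0.785. The value at 8 h ranked above 96.9% of all regions, and the value at 96 h was below the untreated one. OCT4 signal was 10.1, 13.4, 6.56, 7.39, 4.84 and 0.677 and SOX2 signal 6.16, 6.58, 4.46, 2.5, 2.3 and 0.596, both highest at 8 h. ATAC signal was 0.276, 0.239, 0.291, 0.249, 0.141 and 0.0961. This region was of the Early class although its GATA6 log2 change from 8 h to 96 h, -3.96, was the lowest of the 74. Input there was 0.994 at d0 and 0.396 at 96 h.

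Sox2+94.9kb (chr3:34744837-34745769, 932 bp), between genes near the downstream end of the window, had the highest GATA6 signal of the locus. It read 2.45, 14.7, 10.1, 6.63, 5.9 and 4.48, and the untreated value, 15 steps, was the highest of the 74 regions. PTFs were there from d0, with OCT4 at 6.99, 8.29, 4.95, 5.89, 5.77 and 3.11 and SOX2 at 9.63, 10.2, 9.51, 4.29, 6.22 and 2.2. No OCT4:SOX2 hit was recorded in this region. SOX17 signal was 3.41, 2.54, 2.45, 5.17, 4.02 and 3.49, and its value before Dox was above that of 97.3% of regions. Untreated SOX17 signal rose with width over all regions (Spearman rho 0.77), and whether it reflects SOX17 binding was not tested. ATAC signal was 0.604, 0.57, 0.608, 0.743, 0.903 and 0.478.

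Sox2+70.7kb (chr3:34720896-34721344, 448 bp) was closed before Dox and in the constitutive heterochromatin state. GATA6 signal was 0.327, 1.04, 7.16, 5.4, 5.25 and 2.49, with the step between 8 h and 16 h. SOX17 signal was 1.06, 1.01, 2.5, 8.85, 8.79 and 3.93, and OCT4 signal 1.54, 0.802, 2.68, 5.46, 6.01 and 4.45. All 3 were higher at 48 h than at 8 h. SOX2 signal was 0.905, 0.54, 1.84, 2.18, 1.75 and 0.985, highest at 24 h. Levels of SOX2 and OCT4 come from different antibodies and are not compared. ATAC signal was 0.0819, 0.0486, 0.171, 0.259, 0.594 and 0.205. In XEN cells GATA6 was at 0.773, SOX17 at 0.254 and OCT4 at 0.267.

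At Klf4 the 18 regions comprised 7 Early, 6 Late (33.3%, against 33.6% of all regions) and 5 Transient regions, and 11 were closed at d0 (61.1%, against 61.3%). The locus held 6 of the 10 Late regions of the set, with a Late share near that of all regions. Its median log2 change of GATA6 from 8 h to 96 h was 0.57 (-2.65 to 3.25), the only positive median of the 6 loci. The direction went with position. All 5 regions with PTFs from d0 lay 49.4 to 76.5 kb downstream of the start, in the stretch of the known distal enhancers, and all 5 had less GATA6 at 96 h than at 8 h (log2 change -2.65 to -0.77), as had 87.7% of all regions of that PTF class. Of the other 13 regions, which lay from 51.4 kb upstream to 15.7 kb downstream and at 85.1 kb, 10 had more GATA6 at 96 h, against 59.3% of all regions of the other PTF classes. This division by position was chosen after the values were seen.

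Klf4-0.1kb (chr4:55532374-55533647, 1273 bp) covered the promoter and carried the highest H3K4me3 of the 74 regions, 26.7. GATA6 signal was 1.31, 3.24, 6.13, 3.91, 3.96 and 6.01 and reached 9.48 in XEN cells. SOX17 signal was 3.03, 2.78, 3.2, 4.01, 5.6 and 6.3. SOX2 signal was 4.24, 3.99, 3.96, 3.76, 4.48 and 6.55, highest at 96 h. ATAC signal was 0.991, 0.959, 1.14, 1.2, 1.87 and 1.76, above that of 98.3% to 99.2% of all regions at 0, 8, 48 and 96 h. Input was also high here, between 1.07 and 2.46 over the time course and 3.40 in XEN cells.

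Klf4+67.3kb (chr4:55463713-55465226, 1513 bp) lay in an intron of Gm12510 and had the strongest GATA6 signal of the locus, 1.14, 31.8, 16.2, 11.3, 8.78 and 5.01. Per kb of width its highest value, 21.0, was the largest of the 74 regions. OCT4 signal was 14, 17.4, 9.44, 9.69, 9.51 and 3.11, SOX2 signal 18.3, 21, 13.8, 8.74, 11.1 and 2.66 and ESRRB signal 8.88, 10.5, 7.71, 5.48, 3.71 and 1.15. GATA6 signal was highest at 8 h, when OCT4, SOX2 and ESRRB were also highest. SOX17 signal was 6.55, 6.04, 4.55, 7.62, 7.1 and 3.79, and 6.55 at d0 was the highest untreated SOX17 value of the set. ATAC signal was 1.08, 1.08, 1.06, 1.36, 1.54 and 0.637.

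Klf4+15.7kb (chr4:55515487-55516878, 1391 bp) was closed and of the poised enhancer state before Dox. GATA6 signal was 1.14, 5.31, 4.53, 6.46, 9.33 and 18.3 and was 30.4 in XEN cells, the highest XEN value of the 74 regions. SOX17 signal was 1.7, 1.28, 2.4, 7.64, 13.1 and 30.1, SOX2 signal 2.61, 3.27, 2.98, 4.15, 4.24 and 11.2 and OCT4 signal 2.05, 2.14, 1.98, 3.85, 5.5 and 7.26. All 3 were highest at 96 h. ATAC signal was 0.258, 0.221, 0.365, 0.474, 1.55 and 1.58. ESRRB signal was 2.12, 2.97, 2.46, 2.47, 2.87 and 1.44, lowest at 96 h. GATA6, SOX17, OCT4 and SOX2 signals were thus highest at 96 h here, where at Klf4+67.3kb the same 4 signals were the lowest of the Dox time points.

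Klf4+85.1kb (chr4:55446451-55446819, 368 bp) and Klf4-39.2kb (chr4:55571454-55571803, 349 bp) were Late, closed, without PTF peaks and in constitutive heterochromatin, and each had a SOX17 peak. GATA6 signal was 0.49, 0.34, 0.522, 0.783, 2.2 and 3.88 at the first. It was 0.817, 0.138, 0.29, 0.35, 0.605 and 1.76 at the second, which lay in an intron of Gm12511. At 8 h input was 0.297 at the first and 0.32 at the second, so GATA6 signal was near input or below it. SOX17 signal was 0.365, 0.321, 0.3, 1.25, 2.21 and 4.9 at the first and 0.232, 0.209, 0.35, 0.656, 0.512 and 1.53 at the second.

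Klf4-31.8kb (chr4:55563904-55564510, 606 bp) lay in an intron of Gm12511 and Klf4-6.5kb (chr4:55538833-55539237, 404 bp) between genes. Both were Early and closed. At Klf4-31.8kb GATA6 signal was 0.49, 1.62, 3.72, 5.55, 5.55 and 1.97, OCT4 signal 1.78, 1.27, 2.86, 6.96, 7.35 and 1.88 and SOX17 signal 0.714, 0.619, 1.45, 6.93, 7.81 and 1.45, so all 3 were highest at 24 or 48 h and 2-fold or more below that at 96 h. At Klf4-6.5kb GATA6 signal was 0.327, 1.38, 1.16, 3.01, 1.87 and 0.968, with OCT4 at 0.38, 0.205, 0.391, 1.33, 0.795 and 0.2 and no PTF or SOX17 peak.

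At Klf5 the 19 regions comprised 8 Early, 2 Late and 9 Transient regions, with PTFs from d0 at 6, ectopic at 8 and absent at 5. The state was primed enhancer at 7. The median log2 change of GATA6 from 8 h to 96 h was -0.19 (-2.09 to 2.72). The gene itself, which is longer than the other KLF genes here, held 3 regions, Klf5+2.6kb, Klf5+5.4kb and Klf5+7.5kb, named after their values were seen. All 3 had ectopic PTFs, and their GATA6 log2 changes were 0.87, -0.13 and -0.19.

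Klf5+32.6kb (chr14:99330342-99332644, 2302 bp) was the widest of the 74 regions and had the highest GATA6 signal of the set, 1.63, 36.6, 32.7, 27.1, 28.9 and 21.3, with 20.5 in XEN cells. Per kb its highest value was 15.9. OCT4 signal was 8.6, 10.3, 10.3, 19.1, 24.7 and 17.3, above 99.9% of all regions at 48 h. SOX2 signal was 9.48, 11.6, 14, 11, 13.7 and 11.2 and ESRRB signal 12.6, 14.6, 22.1, 13.7, 14.7 and 2.19. SOX17 signal was 4.67, 4.47, 5.4, 15, 21.6 and 17.1 and ATAC signal 0.648, 0.634, 0.958, 1.22, 2.4 and 1.41. The 3 PTFs were thus present before Dox, at least as high at 48 h as at d0, and OCT4 was still 17.3 at 96 h. In XEN cells OCT4 was at 2.27.

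Klf5-0.2kb (chr14:99298220-99298645, 425 bp), the promoter, had a lower GATA6 signal, 0.653, 0.847, 1.86, 1.7, 1.86 and 3.09, highest at 96 h. Input there was 0.892 at d0 and 1.22 at 96 h. OCT4 signal was 0.917, 0.876, 0.741, 1.39, 2.12 and 1.7, and SOX2 signal 1.29, 1.03, 1.06, 1.57, 1.72 and 2.26. ATAC signal was 0.864, 0.839, 0.944, 1.29, 2.13 and 1.75, above that of 98.3% to 99.2% of all regions at 0, 8, 48 and 96 h. From d0 to 96 h the log2 change of ATAC signal was 0.83 at the Klf4 promoter and 1.02 at the Klf5 promoter, against a shift of 0.72 over all regions.

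At Klf2 the 9 regions comprised 4 Early, 1 Late and 4 Transient regions, and 5 had PTFs from d0. The state was active enhancer at 4. The median log2 change of GATA6 from 8 h to 96 h was -1.24 (-2.90 to 3.72). GATA6 was more than 2-fold lower in 7 regions (36.3% of all regions) and more than 2-fold higher in 2 (33.2% of all). The 2 were Klf2+57.9kb and Klf2+97.0kb, both in introns of Eps15l1 and named after their values were seen. OCT4 signal at Klf2+97.0kb was 1.69, 0.764, 2.55, 6.89, 9.18 and 23.2, and its value at 96 h was the highest of the 74 regions.

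Klf2-2.8kb (chr8:72315857-72316655, 798 bp), nearest the start and of the active enhancer state, had the highest untreated OCT4 signal of the 74 regions. OCT4 signal was 19.3, 23.7, 9.98, 5.98, 9.2 and 2.32 and SOX2 signal 23.2, 22.9, 14.1, 5.42, 12.9 and 1.67. GATA6 signal was 1.96, 11, 4.39, 2.69, 2.8 and 2.49, highest at 8 h. ATAC signal was 0.812, 0.801, 0.604, 0.662, 0.32 and 0.161. OCT4, SOX2 and ATAC signal were lower at 96 h than at d0, whereas GATA6 was at 2.49 against 1.96. SOX17 signal, 4.23, 2.86, 1.5, 2, 1.22 and 1.06, was highest before Dox, and no SOX17 peak was recorded.

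Klf2-47.7kb (chr8:72270749-72272404, 1655 bp), between genes, had the highest GATA6 signal of the locus, 2.29, 26.6, 33.6, 16, 9.03 and 3.52. OCT4 signal was 9.81, 11, 10.4, 11.1, 7.93 and 2.9 and ESRRB signal 9.64, 7.47, 14.4, 9.11, 4.5 and 1.72. ATAC signal was 0.942, 1.04, 1.04, 1.17, 1.33 and 0.497. Klf2+35.1kb (chr8:72353711-72354647, 936 bp), in an intron of Eps15l1, had GATA6 at 0.653, 6.6, 6.55, 3.5, 3.21 and 3.06 and OCT4 at 3.43, 4.55, 3.21, 4.32, 3.93 and 2.2. Its OCT4 signal at d0 was above that of 90.3% of regions although the PTF class was ectopic, which rests on peak calls. GATA6 at both was highest at 8 or 16 h.

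At Prdm14 the 9 regions comprised 2 Early, 1 Late and 6 Transient regions, and 5 had PTFs from d0. The median log2 change of GATA6 from 8 h to 96 h was -1.67 (-3.44 to 0.76). OCT4 signal was more than 2-fold lower at 96 h than at d0 in 7 of the 9, against 22.4% of all regions. Among all regions with PTFs from d0 the share was 63.2%. The median log2 change was -1.42, the lowest of the 6 loci.

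Prdm14-5.0kb (chr1:13131545-13132365, 820 bp), between genes, was nearest the start. GATA6 signal was 0.163, 3.22, 1.27, 0.915, 1.51 and 1.16, and the untreated value was 1 step. OCT4 signal was 2.26, 3.1, 1.28, 1.52, 2.08 and 0.82, and SOX2 signal 4.38, 5.66, 3.43, 2.09, 3.93 and 0.649. All 3 factors were highest at 8 h.

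Prdm14+52.5kb (chr1:13074151-13075321, 1170 bp) lay in an intron of Gm29283 and had the highest GATA6 signal of the locus, 0.98, 10.5, 3.69, 3.24, 2.72 and 2.63. OCT4 signal was 11.7, 16.6, 5.71, 3.96, 5.12 and 1.9, SOX2 signal 12.4, 13, 7.53, 4.85, 6.98 and 1.85 and ATAC signal 0.45, 0.446, 0.375, 0.378, 0.419 and 0.149. OCT4 was again highest at 8 h, above 99.6% of all regions. Prdm14+111.3kb (chr1:13015304-13016290, 986 bp), between genes, was Early with a SOX17 peak. GATA6 signal was 0.817, 9.3, 10.3, 6.31, 4.72 and 1.65, OCT4 signal 3, 4.04, 2.14, 4.36, 4.18 and 0.955 and SOX17 signal 1.65, 1.21, 1.75, 4.69, 5.16 and 1.74. OCT4 was highest at 24 h and SOX17 at 48 h, both later than GATA6.

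**Figure D3:**
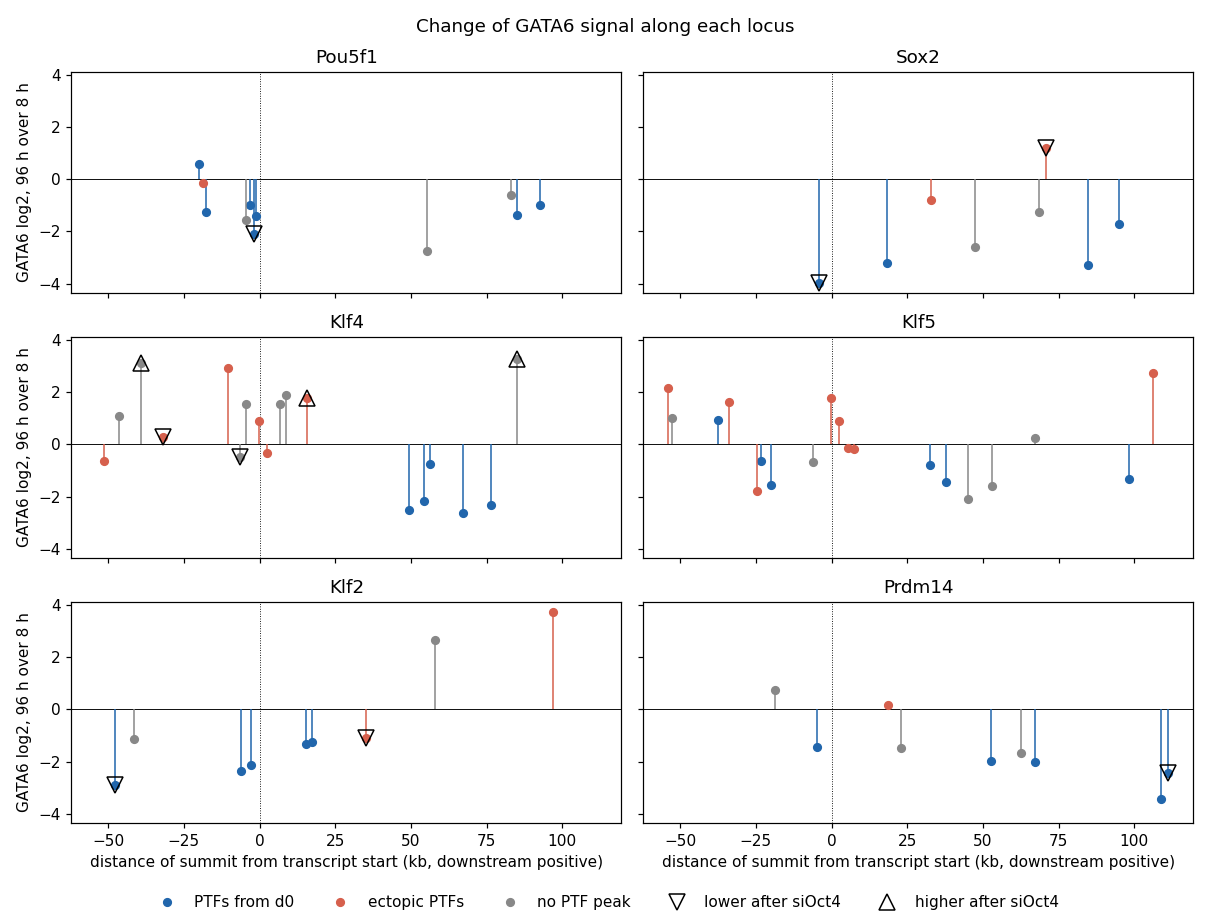
Log2 change of GATA6 signal from 8 h to 96 h (vertical axis) against the distance of the summit from the transcript start (kb, downstream positive), 1 panel per locus, coloured by PTF class, with triangles at regions classed as decreased (down) or increased (up) after Oct4 knockdown. The 5 regions 49.4 to 76.5 kb downstream of the Klf4 start all lie below 0 and all have PTFs from d0, and all 3 increased regions are at Klf4.

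Across the 6 loci the change of each factor went with the PTF class. In the 32 regions with PTFs from d0, GATA6 signal had a median log2 change of -1.62 from 8 h to 96 h, against 0.57 in the 20 regions with ectopic PTFs and -0.55 in the 22 without. The same classes over all regions had medians of -1.85, 0.85 and 0.45. GATA6 was lower at 96 h in 30 of the 32 regions with PTFs from d0 (87.7% of all such regions) and in 20 of the other 42 (40.7%). The median OCT4 change from d0 to 96 h was -1.31, 0.68 and 0.00 in the 3 classes, and the SOX2 change -2.17, 0.45 and -0.08. ESRRB was lower in each class, at -1.99, -0.60 and -0.54, with a shift of -0.56 over all regions. The PTF class was made from the peaks of these factors, so the OCT4, SOX2 and ESRRB changes describe it and do not test it.

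OCT4 signal was more than 2-fold lower at 96 h than at d0 in 25 of the 74 regions (33.8%, against 22.4% of all regions), SOX2 signal in 29 (39.2%, against 27.7%) and ESRRB signal in 36 (48.6%, against 33.5%). By PTF class, OCT4 was more than 2-fold lower in 21 of the 32 regions with PTFs from d0 (63.2% of all such regions) and 0 of the 20 with ectopic PTFs (5.60%). By locus, the median log2 change of OCT4 was -0.70 at Pou5f1, -0.87 at Sox2, 0.21 at Klf4, 0.35 at Klf5, -0.63 at Klf2 and -1.42 at Prdm14. All regions together stood at 0.20, so relative to that shift the Klf4 median was 0.01 and the Klf5 median 0.15. Between 96 h and XEN cells OCT4 was lower by a median of 1.15 on the log2 scale over the 74 regions and by 0.71 over all, from 1 chromatin preparation of XEN cells.

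**Figure D4:**
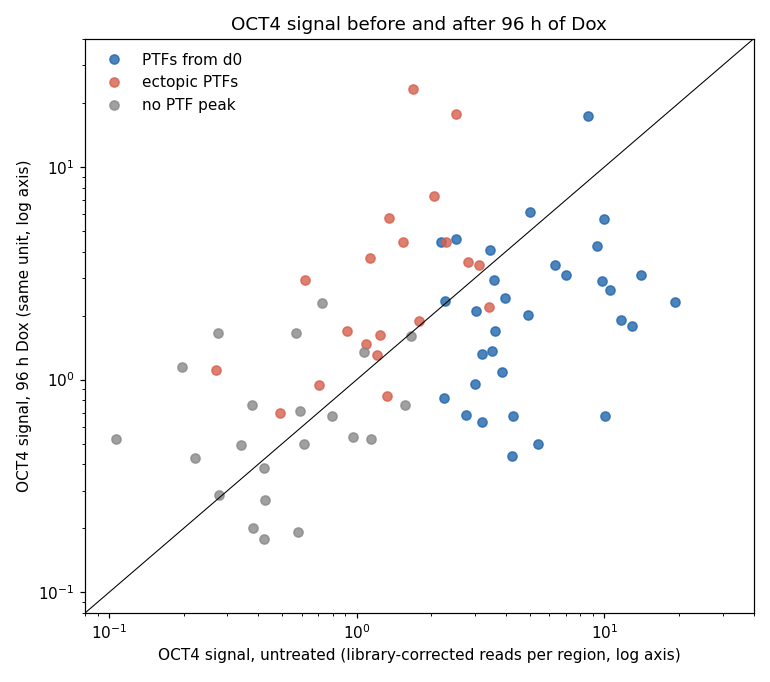
OCT4 signal at 96 h of Dox against OCT4 signal in untreated cells (library-corrected reads per region, both axes log), 1 point per region, coloured by PTF class, with the line of equal signal. Of the 32 regions with PTFs from d0, 21 had a signal more than 2-fold lower at 96 h, against 0 of the 20 with ectopic PTFs.

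Median accessibility was higher at 48 h than before Dox, by less at the regions with PTFs from d0. ATAC signal more than doubled from d0 to 48 h in 30 of the 74 regions (40.5%, against 47.6% of all regions) and was more than 2-fold lower at 96 h than at d0 in 12 (16.2%, against 9.38%). All 12 were among the 32 regions with PTFs from d0, a class in which 34.1% of all regions were that much lower. The median log2 change to 48 h was 0.16 in the regions with PTFs from d0, 1.85 in those with ectopic PTFs and 0.89 in those without, against a shift of 0.94 over all regions. Relative to that shift the first median was -0.79 and the third -0.06, so their direction depends on the scaling, and that of the ectopic class, 0.91, does not. ATAC signal was highest at 48 h in 43 of the 74 regions (45.0% of all regions had their highest value then).

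SOX17 signal more than doubled from 8 h to 48 h in 36 of the 74 regions (48.6%, against 43.2% of all regions). The median log2 change was 2.11 in Early, 1.36 in Late and -0.02 in Transient regions, against 0.81 over all regions. Relative to that shift, the Transient median was -0.83. Before Dox, SOX17 signal had a median of 1.36 over the 74 regions and was the highest of the 6 time points in 13 of them (7.85% of all regions had their highest SOX17 value then). Input at d0 had a median of 0.765. Untreated SOX17 signal also rose with region width (Spearman rho 0.77 over all regions). The parts of input and width in the untreated SOX17 signal were not tested.

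After Oct4 knockdown at 48 h of Dox, GATA6 signal was classed by the authors as decreased at 8 of the 74 regions (10.8%, against 6.25% of all regions), increased at 3 (4.05%, against 8.57%) and unchanged at 63. The decreased regions comprised 1 at Pou5f1, 2 at Sox2, 2 at Klf4, 2 at Klf2 and 1 at Prdm14, and Klf5 held 0 of either class among its 19 regions. The 8 decreased regions comprised 6 Early (49.5% of all decreased regions) and 2 Transient regions (44.7%). The 3 increased regions, all at Klf4, comprised 1 Early (23.6% of all increased regions) and 2 Late regions (75.1%), and all 3 had a SOX17 peak (88.3%). The median log2 ratio of the pooled GATA6 signals, Oct4 siRNA over control siRNA, was -1.04 (-1.57 to -0.69) in the decreased, 0.86 (0.59 to 1.19) in the increased and -0.13 (-0.98 to 0.77) in the unchanged regions.

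Among the decreased regions, GATA6 signal was 3.09 with control siRNA and 0.982 with Oct4 siRNA at Sox2-4.0kb, the lowest ratio of the 74. It was 9.56 and 3.75 at Klf4-31.8kb. It was 5.89 and 2.44 at Klf4-6.5kb. These regions differ in class, since the first had PTFs from d0, the next gained them and the last had no PTF peak. At Klf2-47.7kb the values were 11.7 and 5.65, and at Klf2+35.1kb 3.31 and 1.57. At Prdm14+111.3kb they were 11.8 and 5.9. At Pou5f1-2.0kb, the upstream element of the gene that was knocked down, they were 5.95 and 3.29, a log2 ratio of -0.84. Sox2+70.7kb, at 11.8 and 7.28, had the ratio nearest to 0 of the 8, -0.69.

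The 3 increased regions had GATA6 values of 13.7 with control and 20.7 with Oct4 siRNA at Klf4+15.7kb. They were 3.75 and 6.89 at Klf4+85.1kb, and 0.958 and 2.29 at Klf4-39.2kb. All 3 were regions whose GATA6 signal was highest at 96 h in the time course. Pou5f1-1.2kb, at 1.42 and 0.679, had a log2 ratio of -0.98 and was still classed as unchanged. The time course and the control siRNA were separate experiments, so their difference at 48 h cannot judge classes that the authors called with DESeq2. Centred on all regions, 7 of the 8 decreased and all 3 increased ratios lay within the 95th percentile of that difference over all regions (1.42). Within that over the 74 regions (1.16) lay 5 of the 8 and 2 of the 3. All 63 unchanged ratios lay within both. The difference between the experiments also holds the change from single-end to paired-end reads. It uses no pseudocount, unlike the ratios, so these counts do not bear on the calls.

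**Figure D5:**
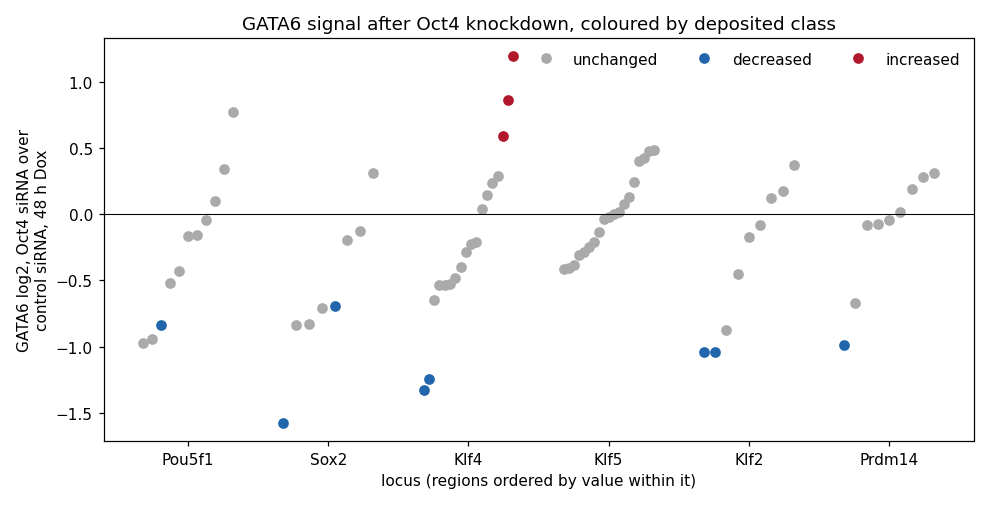
Log2 ratio of GATA6 signal with Oct4 siRNA over control siRNA at 48 h of Dox (vertical axis) for each region, ordered within its locus and coloured by the deposited class. The 8 decreased regions lie between -1.57 and -0.69 and the 3 increased, all at Klf4, between 0.59 and 1.19, while all 19 Klf5 regions are unchanged. Over all regions 6.25% were decreased and 8.57% increased.

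SOX17 signal after Oct4 knockdown was higher over all regions by a median of 0.64 on the log2 scale, and by 0.49 over the 74. At the 8 decreased regions the median SOX17 ratio was -0.15 (-0.13 over all decreased regions), and at the 3 increased 0.77 (1.55 over all increased regions). These medians are not centred on that of all regions. Beside the shift of 0.64, the median at the 3 increased regions was close to it. The median at the 8 decreased regions lay below it. Klf4-31.8kb had SOX17 at 6.84 with control and 3.85 with Oct4 siRNA. Sox2+70.7kb had 13.1 and 7.88. These 2 regions, both with ectopic PTFs and both closed at d0, had lower GATA6 and lower SOX17 signal with Oct4 siRNA. Their log2 ratios of SOX17 were -0.81 and -0.73. They were chosen after their values were seen, and the ratios of the 8 decreased regions ran from -0.81 to 0.77. The median of the 8 was below 0, so lower SOX17 signal was not limited to these 2 regions.

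By simple presence the ESRRB motif stood furthest from its share in all regions. A GATA6 motif was recorded in 66 regions (89.2%, against 89.7%), an OCT4:SOX2 motif in 57 (77.0%, against 71.5%), a SOX17 motif in 54 (73.0%, against 69.2%) and an ESRRB motif in 39 (52.7%, against 36.3%). Wider regions have more room for a motif. The median of motifs per kb, over regions with a motif, was 3.61 for GATA6 (4.15 over all regions), 2.53 for OCT4:SOX2 (3.16), 2.14 for SOX17 (2.84) and 1.32 for ESRRB (1.90). The median number of motifs in such regions was the same in both sets, 2 for GATA6, OCT4:SOX2 and SOX17 and 1 for ESRRB. A density over these regions alone therefore falls with width and does not correct the shares for it. The best score had a median of 10.0 for GATA6 (10.2 over all) and 8.33 for OCT4:SOX2 (8.17).

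The 13-base GATA6 hits held the letters GATAA, searched on the strand of the hit only, in 42 of 66 regions (63.6%, against 75.8% of 12307 hits on the same 6 chromosomes). The letters ATGC, part of the OCT4 side of the composite motif, stood in 14 of 57 OCT4:SOX2 hits (24.6%, against 28.6% of 9819). Of the 8 decreased regions 7 held GATAA in the GATA6 hit and 4 held ATGC in the OCT4:SOX2 hit, the latter shown in the first set of sequences, and of the 3 increased regions 1 held ATGC. The highest OCT4:SOX2 score of the decreased regions, 13.6, was at Pou5f1-2.0kb, and the lowest, 5.27, at Sox2+70.7kb. In the 52 regions with both motifs the best hits were a median of 212 bp apart (7 to 1281 bp), against 150 bp over all regions.

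Other pluripotency genes, Nanog, Esrrb, Tfcp2l1, Tbx3, Zfp42, Nr0b1, Tet1, Dppa4, Dppa5a, Utf1, Lin28a, Sall4, Fgf4 and Tdgf1, held 162 regions within 100 kb of the gene. Of these, 53 were Early (32.7%), 21 Late (13%) and 88 Transient (54.3%). PTFs from d0 were recorded at 61 (37.7%), a SOX17 peak at 87 (53.7%), and the Oct4 knockdown class was decreased at 15 (9.26%) and increased at 8 (4.94%). The shares at the 6 loci, 39.2%, 13.5% and 47.3% for the GATA6 classes and 43.2% for PTFs from d0, were thus close to those around the 14 other genes. Esrrb, named after its values were seen as the highest of the 14, held 5 decreased regions of 13, more than any of the 6 loci. Over all regions the decreased share was 6.25%.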

How the data were processed

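Mouse ES cells with a Dox-inducible Gata6 transgene were profiled by MNase-seq at 0, 8, 16, 24, 48 and 96 h of Dox, grouped here by the labels. The values come from the deposited table of 42403 GATA6 regions with 105 columns, 16 of which (mean motif scores and motif groups) were not used. No column belongs to a library of the series, so library depth and MNase signal were not analysed.

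Per the study's methods, the authors trimmed reads with cutadapt, aligned them with bowtie2 to mm10 and removed duplicates and poorly mapped reads. GATA6 peaks came from MACS2 on merged replicates and were kept where every replicate had them. The deposited ChIP and ATAC signals and other values are corrected for library size and given per region, without replicate values, and ATAC counts use short fragments. For the histone states the authors corrected the mark signals for region width as well. The Spearman rho of the deposited mark signals with width ran from -0.35 for H3K9me3 to 0.12 for H3K4me1. The authors made the GATA6 classes by k-means on log2 signal over input, the SOX17 and PTF classes from peak calls, the histone states from public marks and the Oct4 knockdown class with DESeq2. The deposited motif score is FIMO's match score of a JASPAR matrix, and the authors deposited motif numbers as counts per region.

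Summits were annotated on GRCm38 and called promoter where a transcript started within 1 kb. Log2 changes used a pseudocount of 5% of the column's median over all regions. Motif positions were checked against the GRCm38 sequence: read as deposited, 99.6% to 100.0% of motif sequences that occurred more than once had a single score, against 21.9% to 56.0% when shifted by 1 base. The calculations were tested on simulated data, and no test over samples could be run. Full values are given for the region nearest each start, the highest GATA6 region of each locus and each region classed as changed by the Oct4 knockdown (21 regions). The windows, the list of 14 other genes and this rule were chosen with earlier results of these data known, and 1 further gene of the list is not reported here. Alternatives varied the windows, pseudocount, centring, width scaling, motif distance and loci included. The software was pandas 2.3.3 on Python 3.11.15 with numpy 2.4.6, while correlations came from scipy 1.17.1 and plots from matplotlib 3.10.9.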

Additional observations from a re-analysis of the deposited data

How the results depend on the processing

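Of 259 alternatives to 36 results, 239 left the value the same, 16 moved it and 4 reversed its direction. A value counted as the same within 1.5-fold, or for a share within the 95% confidence interval (Wilson) of the main share. Of the 239, 174 came from leaving out 1 locus, which keeps most of the regions of the main result. Windows 50 kb narrower at each end left 7 regions at Pou5f1 (11 before) and 4 at Sox2 (8 before). Counting moderate regions as open took the accessible share from 16.2% to 63.5%. Centring on the median of all regions took the median log2 change from 8 h to 96 h from 0.57 to -0.45 for SOX17, from 0.26 to -0.41 for ATAC and from -1.24 to -0.56 for ESRRB. Divided by width, the median over the 74 regions relative to that over all regions was 1.35 (from 2.32) for GATA6 at 8 h, 1.72 (from 3.02) for OCT4, 1.78 (from 3.20) for SOX2 and 1.62 (from 2.54) for ATAC at d0. Best motifs within 100 bp of the summit were present in 55.4% of regions for GATA6, 27% for SOX17, 39.2% for OCT4:SOX2 and 23.0% for ESRRB.

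Leaving out 1 locus at a time, the Late share ran from 7.14% to 15.9%, the lowest without Klf4, and the increased share from 0.0% to 5.45%, 0.0% without Klf4. The ATAC change from 8 h to 96 h ran from -0.23 to 0.51, at -0.03 without Klf4 and -0.23 without Klf5. The number of SOX17 motifs per region relative to all regions ran from 0.5 to 1.0, at 0.5 without Klf4 or Klf2. The cause of these moves was not tested, other than the smaller number of regions. No paired analysis was possible because no column used carries a library or a replicate number. The columns give no counts, so depth limits what a low value can show by an unknown amount, except for untreated GATA6, whose values were 1 to 15 steps.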

Other observations

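In XEN cells, GATA6 signal over the 74 regions had a median of 1.11, against 1.34 over all regions, and 24 of the 74 were more than 2-fold lower there than at 96 h of Dox (15.4% of all regions). By locus the XEN median was 0.802 at Pou5f1, 0.267 at Sox2, 1.67 at Klf4, 1.70 at Klf5, 2.41 at Klf2 and 0.605 at Prdm14. The highest XEN values were 30.4 at Klf4+15.7kb, 20.5 at Klf5+32.6kb, 13.2 at Klf4-10.5kb and 12.8 at Klf5-37.4kb, the last 2 named after their values were seen. At Klf4+15.7kb and Klf5+32.6kb SOX17 in XEN cells was 25.2 and 11.8, and OCT4 was 2 and 2.27.

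The highest ESRRB signal of the 74 regions was at Klf4+56.1kb, named after its values were seen, with 24.1 at d0, 26.5 at 8 h and 1.14 at 96 h. OCT4 signal there was 9.96 at d0 and 5.67 at 96 h. The ESRRB signal of this region at d0 was higher than at Klf4+67.3kb, 8.88, although GATA6 at 8 h was lower, 12.5 against 31.8.

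With windows 50 kb wider at each end, Pou5f1 held 12 regions, Sox2 11, Klf4 21, Klf5 23, Klf2 12 and Prdm14 10. Of the 11 regions in the wider Sox2 window, 7 had PTFs from d0 (20.8% of all regions). After Oct4 knockdown 3 of the 11 were classed as decreased (6.25% of all regions). In the window used these counts were 4 and 2 of 8. Klf5 held 0 regions of the decreased class among the 23 in its wider window, against 6.25% of all regions. So few regions cannot separate 0 from that share. The wider windows of Pou5f1, Klf4, Klf2 and Prdm14 held 1, 3, 2 and 1 decreased regions.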
